A study of Homo sapiens with 6 samples.

Results

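AICAR-induced naive cells were compared with the primed human embryonic stem cells from which they had been derived, with attention to genes of metabolism and signalling and to genes on which the AICAR libraries differed from each other. The comparison used 3 of the 6 RNA-seq libraries of the series, chosen by their sample labels: AICAR 1 and AICAR 2 from naive cells and 1 library from the parental primed line. All 3 carry the EOS reporter, in which a pluripotency enhancer drives GFP and puromycin resistance, and the labels name the line H1 while the study's text names it H9. The primed cells were untreated and grew on Matrigel in StemFit AK02N. The naive cells had been induced with AICAR, a nucleoside that cells phosphorylate to an AMP mimic and activator of AMP-activated protein kinase (AMPK), in PXGL medium on mouse embryonic fibroblast feeders. PXGL contains the MEK inhibitor PD0325901, the tankyrase inhibitor XAV939, the protein kinase C inhibitor Gö6983 and LIF. After induction the study's text describes a period at a lower AICAR level and then expansion over passages in PXGL without AICAR. The cells were sorted for CD75 and SUSD2. Medium, feeders, inhibitors, passages, the sort and the AICAR induction differ together between the groups, so their parts cannot be told apart. The study's text gives different passage numbers for its AICAR samples without saying which library is which. No source used here says that they came from separate inductions, and p-values therefore measure the spread between these samples, which may be technical.

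AMPK is a heterotrimer of a catalytic alpha subunit with beta and gamma subunits that senses falling energy charge. When active it limits lipid and sterol synthesis and mTORC1, the growth kinase complex, and favours autophagy and fatty acid oxidation. Primed human pluripotent cells rely largely on glycolysis and on FGF and activin signals, and naive cells, which resemble the preimplantation epiblast, are known for more active mitochondrial respiration. Transcript levels, which are what was measured here, do not report enzyme activity or phosphorylation.

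Total counts were 54277064 in AICAR 1, 46823699 in AICAR 2 and 50794764 in the primed library. Levels are given as CPM, read counts scaled to a common library size and by TMM factors. All 16 naive markers were higher and all 14 primed markers were lower in both AICAR libraries (median log2 fold changes of 8.80 and -5.14). SUSD2, with 666 and 619 CPM against 2.91, was used in the sort, so its level reflects the gate as well. Summed over 10 fibroblast markers, levels were 49.1 and 70.2 CPM in the AICAR libraries and 282 CPM in the primed library, and FAP had 0 and 2 counts against 0. Of 31152 gene identifiers tested with edgeR's quasi-likelihood test, 12370 (39.7%) passed an adjusted p of 0.05, 5685 higher (18.2%) and 6685 lower (21.5%) in AICAR cells. Of 12447 identifiers on chromosomes other than Y with a mean of at least 5 CPM, 25.7% were called higher and 35.3% lower. These shares are the background for the list counts below, and counts near them are no more than expressed genes as a whole show. The median log2 fold change of all identifiers tested was 0.07, and it was 0.19 when library totals replaced TMM scaling, a shift that the choice of scaling sets. The AICAR libraries lay on the same side of the primed library for 86.0% of identifiers. Both were set against the same primed library, so most would do so without any difference between the groups.

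The 10 highest and 10 lowest changes were taken among called protein-coding genes with a mean of 5 CPM or more, more than 3 counts in every library and AICAR libraries within 2-fold of each other. DNMT3L, a cofactor of DNA methylation, had 1391 and 1431 CPM against 0.999 (log2 fold change 10.46, SE 0.20). NLRP7 and KHDC3L, of the maternal complex of the oocyte and early embryo, had 823 and 731 against 0.583 CPM and 183 and 225 against 0.25 CPM. KHDC1L, ZNF729, SYCP3 and DDX43, with ALPG, DPPA5 and DPPA3, made up the rest of the 10 highest, between 9.11 and 10.89 on the log2 scale. NLRP7 and ZNF729 are listed under more than 1 identifier. Among the 10 lowest, IGFBP4, which binds insulin-like growth factors, had 0.367 and 0.487 CPM against 119 (log2 fold change -8.13, SE 0.26), and COL4A6, a basement membrane collagen, had 0.165 and 0.284 against 56.7. NBEA, NTS, FAT3 and PLA2G3 had -8.25, -7.98, -7.88 and -7.78, beside TNIK, DUSP6, SFRP2 and THY1.

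**Figure D1:**
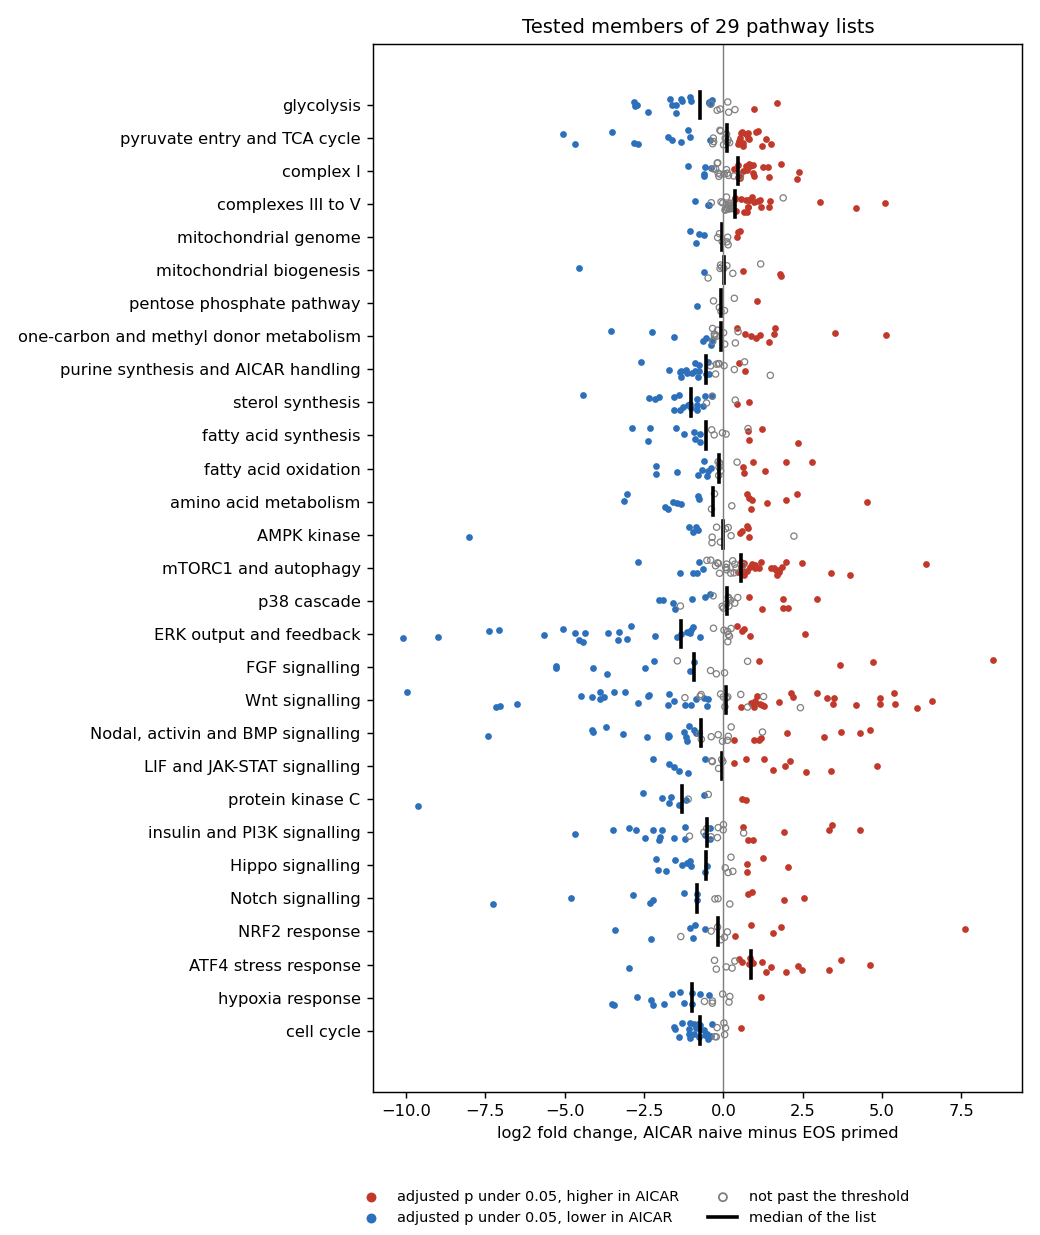
Each point is a tested member of a pathway list, placed by its log2 fold change (AICAR naive minus EOS primed, x axis). Red points passed the threshold higher in AICAR cells, blue points passed it lower, open points did not pass, and black bars are list medians. Genes with no count in a group are drawn at their lower bound. Marker lists and the p53 response are not drawn. Medians of sterol synthesis, ERK output and protein kinase C lie below -1, and that of the ATF4 response is 0.88.

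Glycolysis genes were mostly lower in AICAR cells. Of 24 genes, all tested, 16 were lower, 2 were higher and 6 did not pass, with a median log2 fold change of -0.73. The list summed to 16639.9 CPM in the EOS primed library and 14274.5 in the CA-p38 primed library of the series. With both primed libraries as reference 13 were lower and 3 higher, and the median was -0.60. Genes of the glucose and lactate transporters and of the lower steps, from triose phosphate to lactate, had medians of -2.03 (4 genes) and -1.16 (8 genes), and those of the upper steps -0.41 (12 genes). SLC2A1, the basal glucose transporter GLUT1 on chromosome 1 (GRCh38, 42925353 to 42958893), had 104 CPM in AICAR 1 and 109 in AICAR 2 against 693 in the primed library, a log2 fold change of -2.71 (SE 0.13, adjusted p = 1.28e-25). SLC2A3, the high-affinity neuronal-type transporter GLUT3, had 171 and 167 against 873 CPM. For both transporters each AICAR library lay below the primed library.

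Phosphofructokinase, the enzyme of the committed step, moved in opposite directions by isoform. PFKM, the muscle-type isoform, had 10.4 and 12.7 CPM against 79.5 (log2 fold change -2.78, SE 0.19, adjusted p = 2.68e-19), and PFKP, the platelet-type isoform, had 67.2 and 99.0 against 172. PFKL, the liver-type isoform, rose from 124 CPM to 438 and 372 (log2 fold change 1.70, SE 0.14, adjusted p = 8.3e-15). PFKFB3 had 11.5 and 13.2 CPM against 86.6. It makes the fructose bisphosphate that activates phosphofructokinase, not the one that phosphofructokinase produces. At the end of the pathway LDHA, a lactate dehydrogenase subunit listed under more than 1 identifier, had 157 and 129 against 441 CPM, and LDHB had 381 and 382 against 1068 CPM. ENO2, the neuronal-type enolase, was the other gene that was higher, with 225 and 193 CPM against 107. TPI1 and ALDOA did not pass, at 1202 and 1161 against 1072 CPM and at 920 and 894 against 972 CPM.

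At the entry of pyruvate into mitochondria, 3 of the 11 tested genes of pyruvate dehydrogenase, its kinases and phosphatases were higher, 3 were lower and 5 did not pass. PDHA1, the catalytic subunit of pyruvate dehydrogenase, rose from 173 CPM to 490 and 397 (log2 fold change 1.36, SE 0.14, adjusted p = 1.05e-11). PDK1, a kinase that inhibits it, fell from 120 CPM to 13.5 and 7.73 (log2 fold change -3.50, SE 0.20, adjusted p = 7.34e-23), PDK2 and PDK3 were lower too, and PDK4 had at most 1 count in any library and was not tested. MPC1, a subunit of the mitochondrial pyruvate carrier, rose from 6.47 to 15.7 and 14.4 CPM, and MPC2, the other subunit, did not pass (adjusted p = 0.386). Of 39 genes of pyruvate entry and the TCA cycle, 38 were tested, with 16 higher and 11 lower and a median of 0.11.

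Among the cycle enzymes the isoforms again differed. The NAD-dependent isocitrate dehydrogenase genes IDH3A, IDH3B and IDH3G were higher (log2 fold changes of 0.811, 0.717 and 1.501), and the NADP-dependent IDH2 fell from 120 CPM to 14.4 and 23.1 (log2 fold change -2.68, SE 0.19, adjusted p = 3.71e-19). SUCLG1 was higher and SUCLG2, the GTP-specific beta subunit of the same enzyme, was lower, with 10.9 and 10.2 CPM against 74.0. The malic enzyme gene ME1 had 0.660 and 1.20 CPM against 23.7. ME3, its mitochondrial relative, had no count in either AICAR library and 97 counts in the primed library, and was at least 33.2-fold lower against a floor of 3 counts per library.

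Nuclear genes of the respiratory chain were more often higher than lower. For complex I, 19 of 37 subunit genes were higher and 5 lower (median 0.46), and for complexes III to V, 21 of the 42 tested were higher and 3 lower (median 0.38, 44 genes in the list). A fit to all 6 libraries took the VPA-induced and CA-p38-induced naive libraries of the series as 1 group. With either AICAR library left out of it, the spread came from this group alone. Without AICAR 2 in that fit the medians were 0.60 and 0.47, and without AICAR 1 they were 0.38 and 0.35. Complex IV genes had the highest median of these, 0.92 over 17 tested. NDUFAB1, the mitochondrial acyl carrier protein on chromosome 16 (23581014 to 23596316), rose from 121 CPM to 622 and 641 (log2 fold change 2.39, SE 0.13, adjusted p = 5.86e-21), and NDUFA9 rose from 43.1 to 219 and 208 CPM. COX6B2, the testis-type isoform of a complex IV subunit, rose from 1.04 CPM to 20.5 and 17.2 (log2 fold change 4.18, SE 0.32, adjusted p = 2.82e-15), while the somatic COX6B1 went from 115 to 214 and 194 CPM. COX7B2, a further testis-type isoform, had no count in the primed library against 102 and 117 counts, at least 34.001-fold higher. NDUFS4 was the complex I gene with the largest decrease, with 39.6 and 37.2 CPM against 83.2.

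The 13 protein-coding genes of the mitochondrial genome did not move together. MT-CO1, MT-ND1 and MT-ND2 were higher, MT-CO3, MT-ATP6, MT-ATP8 and MT-ND3 were lower, and 6 did not pass (median -0.04). With both primed libraries as reference the median was 0.24 and MT-CO3 was not called (adjusted p = 0.367), and the list summed to 30158 CPM in the EOS primed library and 19922 in the CA-p38 primed library. MT-CO1 had 9773 and 8211 CPM against 6301 (log2 fold change 0.51, SE 0.11, adjusted p = 7.35e-05), and MT-ATP6 had 1721 and 1445 against 2693. In 12 of the 13 the AICAR 1 level was above that of AICAR 2, and without AICAR 1 in the 6-library fit none of the 13 was called higher (MT-CO1 adjusted p = 0.0611). MT-CO3 lost its call without AICAR 2 in that fit (adjusted p = 0.109), and MT-ND1 with DESeq2 (adjusted p = 0.0649). Among 13 regulators of mitochondrial biogenesis, ESRRA, a receptor that drives respiratory genes, its coactivator PPARGC1B, and the mitochondrial polymerase POLRMT were higher, and TFAM, which packages mitochondrial DNA, was lower (78.6 and 81.8 CPM against 123), as was ESRRB, a relative of ESRRA.

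**Figure D2:**
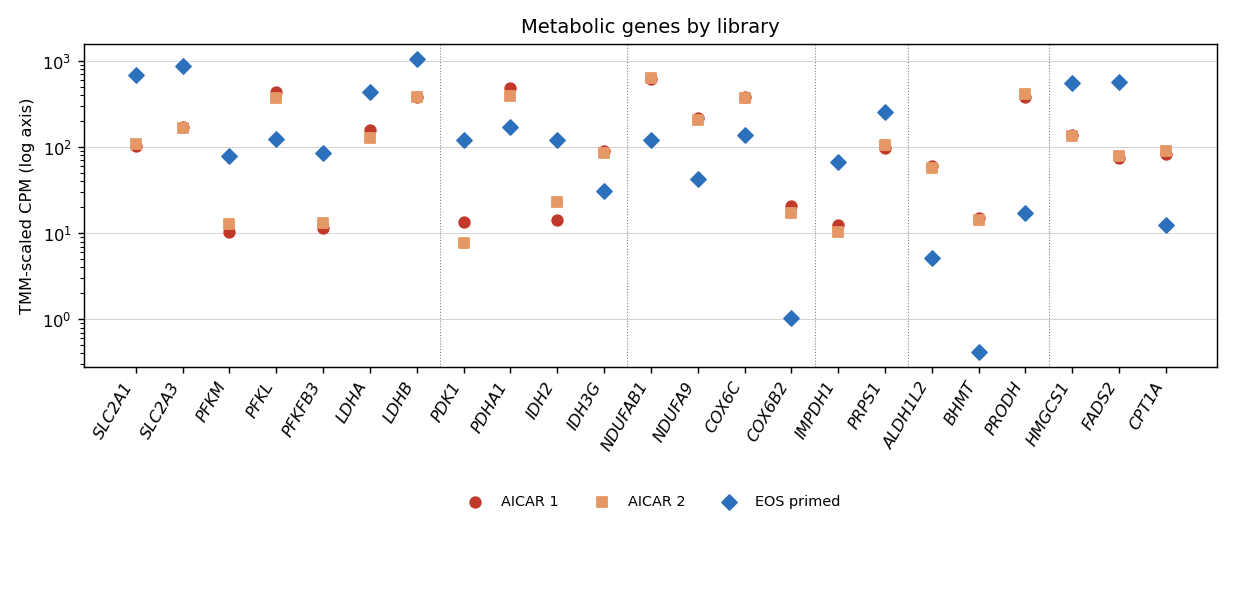
TMM-scaled CPM (log y axis) of 23 metabolic genes in AICAR 1, AICAR 2 and the EOS primed library, 1 symbol per library, with dotted lines between pathways. The AICAR symbols lie close together, above the primed symbol for PFKL, PDHA1, NDUFAB1, COX6B2, ALDH1L2, BHMT, PRODH and CPT1A, and below it for SLC2A1, PFKM, PDK1, IMPDH1 and FADS2.

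AICAR is itself an intermediate of purine synthesis, so the genes that take it up and use it were described as a group. Of 28 genes, 27 were tested, 16 were lower and 2 higher (median -0.55), 1 higher without AICAR 1 in the 6-library fit. All 13 genes of de novo synthesis were below the primed level in both AICAR libraries, and 10 passed. IMPDH1, which commits IMP to guanine nucleotides, had 12.4 and 10.3 CPM against 68.0 (log2 fold change -2.58, SE 0.20, adjusted p = 2.16e-17), and GMPS, ADSL and PRPS1 had -1.36, -1.18 and -1.33. ATIC, the enzyme that consumes AICAR monophosphate, had 139 and 152 CPM against 198 (log2 fold change -0.44, SE 0.14, adjusted p = 0.00785), a call lost without AICAR 1 or AICAR 2 in the 6-library fit (adjusted p = 0.19 and 0.0769). ADK, adenosine kinase, which phosphorylates AICAR, had 13.8 and 11.2 CPM against 24.95 (log2 fold change -0.996, SE 0.24, adjusted p = 0.000369). Of the equilibrative nucleoside transporters, SLC29A1 had 101 and 73.2 CPM against 127. Its call was lost in the 6-library fit with both AICAR libraries kept (adjusted p = 0.0515). Without AICAR 2 in that fit its log2 fold change was -0.29. SLC29A2 rose from 27.3 to 45.4 and 41.8 CPM.

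One-carbon genes were divided, with 10 of the 28 tested higher and 7 lower. The 6-library fit gave 9 higher and 5 lower. BHMT, which remethylates homocysteine from betaine, rose from 0.416 CPM to 14.9 and 14.3 (log2 fold change 5.13, SE 0.41, adjusted p = 1.24e-15). ALDH1L2, a mitochondrial folate enzyme, rose from 5.10 CPM to 59.8 and 57.6 (log2 fold change 3.52, SE 0.20), and MTHFD2, of the same compartment, and GLDC, of the glycine cleavage system, had 1.17 and 1.44. MTHFD2L, an isoform of MTHFD2, fell by 3.54 on the log2 scale. NNMT, which methylates nicotinamide, had 0 and 2 counts in the AICAR libraries and 0 in the primed library and was not tested.

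Of 23 sterol synthesis genes 18 were lower and 2 higher (median -1.02). HMGCS1, of the early mevalonate steps, had 137 and 136 CPM against 550 (log2 fold change -2.01, SE 0.13, adjusted p = 5.28e-20). PMVK and EBP were the sterol genes that were higher (0.79 and 0.43). EBP was not called in the 6-library fit with both AICAR libraries kept (adjusted p = 0.0676) or with DESeq2 (adjusted p = 0.129).

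Of 18 genes of fatty acid synthesis, 9 were lower and 4 higher (median -0.55). The desaturase genes FADS2, FADS1 and SCD had log2 fold changes of -2.888, -2.379 and -1.497, and FADS2 went from 574 CPM to 75.2 and 79.9. The regulators SREBF1 and MLXIPL went the other way, SREBF1 from 89.8 to 218 and 204 CPM and MLXIPL from 1.52 to 8.71 and 6.78 CPM. For fatty acid oxidation, 6 of 21 were higher and 9 lower. CPT1A, the liver-type carnitine palmitoyltransferase that admits fatty acids to mitochondria, rose from 12.5 CPM to 83.5 and 89.6 (log2 fold change 2.79, SE 0.17, adjusted p = 6.56e-19), and the brain-type CPT1C fell from 19.4 to 3.82 and 5.05 CPM. ETFA, an electron carrier of the pathway, had 19.6 and 16.8 CPM against 79.3.

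In amino acid metabolism, PRODH, the first enzyme of proline breakdown, had the largest change, from 17.2 CPM to 380 and 409 (log2 fold change 4.52, SE 0.14, adjusted p = 1.11e-29). Of the proline synthesis genes ALDH18A1 was lower (-1.47) and PYCR1 was higher (0.80). SLC7A5 and SLC3A2, the subunits of the LAT1 transporter of large neutral amino acids, rose to 474 and 483 from 122 CPM and to 486 and 500 from 189 CPM. SLC7A8, which encodes LAT2, fell from 254 to 30.9 and 26.9 CPM, and the glutamine carrier SLC38A1 fell from 308 to 26.4 and 48.1 CPM.

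The AMPK subunit genes did not move together. Of 18 genes of the kinase and its regulators 5 were higher and 5 lower, 2 higher without AICAR 2 in the 6-library fit. PRKAA1, the alpha-1 catalytic subunit, had 32.9 and 32.9 CPM against 27.8 and did not pass (log2 fold change 0.24, SE 0.19, adjusted p = 0.352). PRKAA2, the alpha-2 catalytic subunit on chromosome 1 (56645314 to 56715335), had 4 and 2 counts in the AICAR libraries and 749 in the primed library. The primed level was 270-fold that of the summed AICAR libraries, with a 95% counting interval of 123 to 737. The beta subunit genes PRKAB1 and PRKAB2 were higher (0.58 and 0.54), calls that were lost without AICAR 2 in the 6-library fit (adjusted p = 0.064 and 0.0623), and PRKAG1 and PRKAG2 did not pass. Of 11 genes of upstream kinases and cofactors, 3 were higher and 4 lower: STRADA, a partner of LKB1, had 18.1 and 13.1 CPM against 33.0 and CAMKK2 had 22.7 and 19.9 against 41.4, and STK11, which encodes LKB1, did not pass (75.1 and 80.4 CPM against 69.9).

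Genes of mTORC1 restraint, autophagy and lysosomes were more often higher, 27 of the 49 tested against 6 lower (median 0.55, 50 genes in the list). DEPTOR, an inhibitor of mTOR, rose from 0.853 CPM to 70.1 and 71.9 (log2 fold change 6.37, SE 0.26, adjusted p = 5.01e-28), and SESN2 and SESN1, leucine sensors that restrain mTORC1, rose from 7.53 to 40.7 and 42.7 CPM and from 21.1 to 68.4 and 66.4 CPM. SESN2 is listed under more than 1 identifier. ULK1, the kinase that starts autophagy, and ATG5, of the conjugation machinery, had log2 fold changes of 1.495 and 1.743. RHEB, the activator of mTORC1, fell from 109 to 57.0 and 56.3 CPM.

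Of the MiT/TFE factors, which drive lysosomal genes, TFEB rose from 0.562 CPM to 6.14 and 5.60 and TFE3 fell from 127 to 50.8 and 49.0 CPM (log2 fold changes of 3.38 and -1.35, SE 0.47 and 0.16). The lysosomal protease genes CTSL and CTSB had 1.77 and 1.86, CTSB listed under more than 1 identifier. GPNMB, a known MiT/TFE target, rose from 1.81 to 29.3 and 28.5 CPM, and RRAGD, another, fell from 25.3 to 3.67 and 4.16 CPM.

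Sequences are shown for promoters of this list because lysosomal genes are known to share an E-box, CACGTGAC, that MiT/TFE factors bind. The letters were searched on both strands in the RefSeq promoters of GRCh38.p14, 250 bases before to 50 after each start. The promoter table matched 40 of the 50 genes, and 6 of these held the letters, as did 2.53% of all 27195 promoters. Capitals mark the match, and GTCACGTG is the same letters read on the other strand.
MCOLN1, chr19:7522599-7522628, plus strand: ggctaccgggtCACGTGACcgaggcacaga
CTSD, chr11:1763956-1763985, minus strand: ccggccgcgccCACGTGACcggtccgggtg
LAMP1, chr13:113297200-113297229, plus strand: acccgcgggatCACGTGACgcccgggcgcg
RRAGC, chr1:38859866-38859895, minus strand: ggtgattccggCACGTGACggggcaccacc
ATG14, chr14:55411833-55411862, minus strand: aaacaaaatccCACGTGACtggctctcctc
TSC2, chr16:2047858-2047887, plus strand: catgcggccccGTCACGTGatgcaaggatc

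LAMP1 held 6 matches and MCOLN1 held 3, of which overlapping ones share letters, and 1 of each is shown. Of these genes MCOLN1, a lysosomal calcium channel, had a log2 fold change of 1.14, CTSD, a protease, 0.57, LAMP1, a membrane protein, 0.55, RRAGC, a GTPase that recruits mTORC1, 0.85 and TSC2, its brake, 0.47, and all 5 passed. TSC2 lost its call without AICAR 1 or AICAR 2 in the 6-library fit (adjusted p = 0.064 and 0.0658). ATG14, which nucleates autophagosomes, had 0.41 and did not pass (adjusted p = 0.104). The match is a description of the letters and not of binding.

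The p38 kinase genes showed no common direction. MAPK14, which encodes p38 alpha, had 51.9 and 41.4 CPM on either side of 46.6 in the primed library. Of 24 genes of the cascade 6 were higher and 7 lower (median 0.13). MAP3K6 rose from 11.2 CPM to 91.1 and 81.1 (log2 fold change 2.94, SE 0.17, adjusted p = 1.53e-19) and the p38-activating kinase MAP2K6 fell from 57.9 to 19.9 and 20.1 CPM. Of the downstream kinases, RPS6KA4 rose from 17.04 to 68.2 and 57.6 CPM and MAPKAPK3 fell from 55.9 to 14.1 and 15.97 CPM. DUSP16 and DUSP10, phosphatases of p38 and JNK, were higher (1.87 and 2.04).

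ERK is the kinase downstream of MEK, and a MEK inhibitor was present in the naive medium only. Of 22 targets and feedback inhibitors of ERK 19 were lower and 1 higher (median -3.47), and of 13 kinase genes of the cascade 4 were lower and 4 higher. The count of higher genes over both groups was 3 in place of 5 when either AICAR library was left out of the 6-library fit. DUSP6, the phosphatase of ERK, had 16 and 10 counts against 13288, a log2 fold change of -10.10 (SE 0.29). SPRY4, ETV5 and ETV1 had -9.00, -7.07 and -7.39. FOS, an immediate early gene, was the target that was higher, with 37.9 and 29.1 CPM against 5.62 (log2 fold change 2.57, SE 0.23, adjusted p = 5.49e-13).

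**Figure D3:**
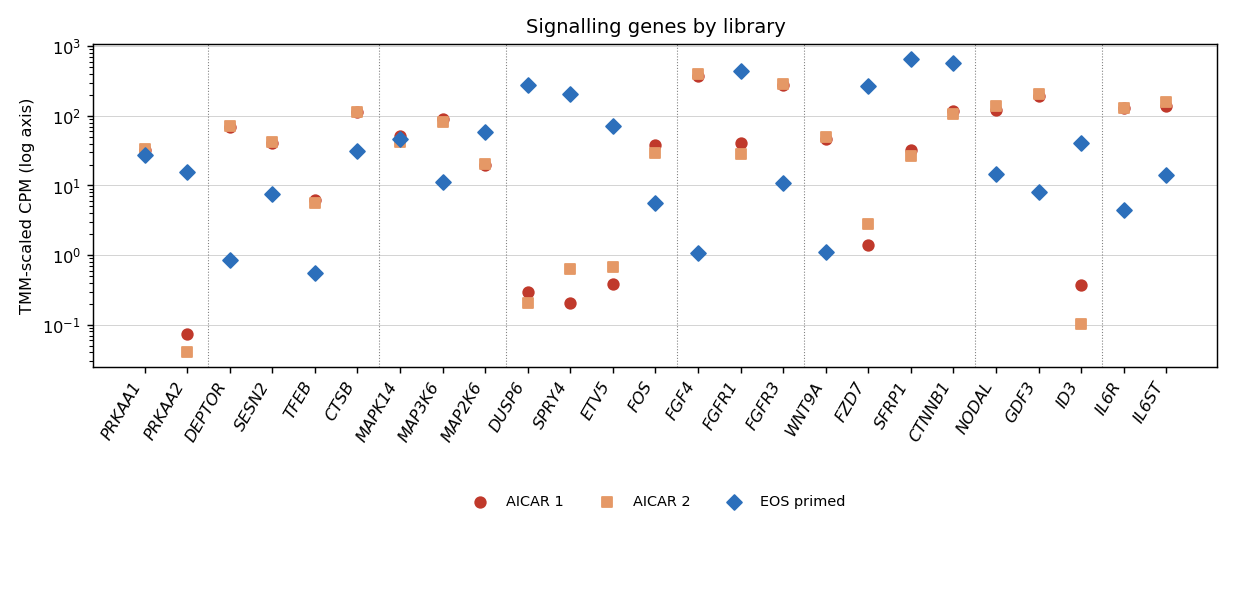
TMM-scaled CPM (log y axis) of 25 signalling genes in AICAR 1, AICAR 2 and the EOS primed library, 1 symbol per library, with dotted lines between pathways. PRKAA2, DUSP6, SPRY4 and ETV5 lie below 1 CPM in both AICAR libraries, and DEPTOR, FGF4, WNT9A, GDF3 and IL6R lie above the primed symbol in both.

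In FGF signalling, 6 of 10 genes listed as ligands were lower and 2 higher (median -1.81), and of 7 receptor genes 2 were lower and 2 higher. FGF4 rose from 1.06 CPM to 370 and 398 (log2 fold change 8.50, SE 0.21, adjusted p = 5.5e-37) and FGF8 from 0.499 to 6.51 and 6.35 CPM. FGF2, FGF19 and FGF13, an intracellular member of the family, were lower. Among the receptors FGFR1 fell from 443 to 41.3 and 28.01 CPM, FGFR3 rose from 10.8 to 276 and 289 CPM, FGFR4 rose from 52.9 to 133 and 99.0 CPM, and FGFR2 had 95.1 and 96.8 against 93.4 and did not pass.

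Wnt genes had 23 higher and 23 lower of the 58 tested. The ligand genes leaned higher, 8 of 14 with 2 lower, and the receptors and secreted inhibitors leaned lower, 13 of the 19 tested with 4 higher. WNT9A rose from 1.12 CPM to 46.9 and 49.4 (log2 fold change 5.42, SE 0.26, adjusted p = 3.08e-24), WNT3, listed under more than 1 identifier, rose from 1.89 to 17.1 and 19.6 CPM, and WNT10B had no count in the primed library against 219 and 221, at least 68.1-fold higher. The receptor gene FZD7 fell from 270 CPM to 1.38 and 2.80, and the secreted inhibitor SFRP1 from 663 to 32.4 and 26.8 CPM. CTNNB1, which encodes beta-catenin, had 118 and 108 CPM against 575 (log2 fold change -2.35, SE 0.14, adjusted p = 1.05e-22), and TNKS and TNKS2, the tankyrases that XAV939 inhibits, had -1.56 and -1.02. AXIN2, a feedback target, rose from 23.7 to 51.2 and 42.8 CPM.

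In Nodal, activin and BMP signalling, 6 of 14 genes of ligands and antagonists were higher and 4 lower (median 0.25). NODAL, GDF3, LEFTY2, BMP2, BMP4 and TDGF1 were higher (3.18, 4.61, 3.70, 4.30, 2.01 and 0.34). TDGF1 was not called in the 6-library fit with both AICAR libraries kept (adjusted p = 0.071) or with DESeq2 (adjusted p = 0.155). INHBE, LEFTY1, FST and NOG were lower (-3.15, -1.18, -3.71 and -4.11), with 6 and 27 counts for INHBE in the AICAR libraries. Of 19 receptor, SMAD and ID genes 11 were lower and 3 higher. ID3, a BMP target listed under more than 1 identifier, had 20 and 5 counts against 1979, and ID1, of the same family, rose from 30.2 to 54.1 and 64.1 CPM. For LIF, an ingredient of PXGL, the receptor gene LIFR fell from 17.02 to 5.54 and 6.17 CPM, the shared co-receptor gene IL6ST rose from 14.3 to 139 and 160 CPM, and IL6R rose from 4.52 to 130 and 129 CPM (log2 fold change 4.84, SE 0.17, adjusted p = 6.48e-28). SOCS3, a STAT3 target, rose from 15.9 to 40.0 and 37.4 CPM. Of 12 protein kinase C and D genes 8 were lower and 2 higher (median -1.29), 1 higher without AICAR 1 in the 6-library fit. PRKD1 had 0 and 1 counts against 462, a primed level 998-fold that of the summed AICAR libraries with a counting interval of 178 to 39499. In insulin and PI3K signalling 15 of 31 were lower and 7 higher. INSR and IGF2 rose (1.93 and 3.33), IGF1R and IRS1 fell (-1.99 and -2.45), and INPP5D, a lipid phosphatase listed under more than 1 identifier, rose from 2.50 to 54.2 and 45.6 CPM. In Hippo signalling 10 of the 18 tested were lower and 4 higher, and in Notch signalling 8 of the 15 tested were lower and 4 higher, 2 higher without AICAR 2 in the 6-library fit. HES1, a Notch target, had 12 and 9 counts against 1515.

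Stress programmes did not move alike. Of 15 genes of the p53 response, all tested, 9 were higher and 4 lower (median 1.30). Genes of the ATF4 response, which is switched on when amino acids run low or proteins misfold, were higher in 15 of the 21 tested and lower in 1 (median 0.88). GDF15, a secreted stress hormone, rose from 1.96 CPM to 45.6 and 51.1 (log2 fold change 4.62, SE 0.23, adjusted p = 1.74e-22), and TRIB3 and DDIT3, of the same response, had 3.33 and 3.72. PSAT1, PHGDH, HSPA5 and ATF4 itself did not pass. The sequences of 3 members show the letters TGATGNAA, known from the response element that ATF4 binds with C/EBP partners, on either strand. The promoter table matched 20 of 22 members, 4 held the letters, and 3.67% of all promoters did. The fourth, FGF21, had at most 2 counts in a library. Capitals mark the match.
ASNS, chr7:97872458-97872487, minus strand: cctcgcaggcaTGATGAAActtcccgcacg
ATF3, chr1:212565205-212565234, plus strand: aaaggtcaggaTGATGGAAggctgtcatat
CHAC1, chr15:40953251-40953280, plus strand: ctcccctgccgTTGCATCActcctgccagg

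ASNS, asparagine synthetase, ATF3, a transcription factor, and CHAC1, which degrades glutathione, had log2 fold changes of 0.507, 1.496 and 1.341, and all 3 passed, ASNS not without AICAR 1 in the 6-library fit (adjusted p = 0.0958). Hypoxia-responsive genes were lower in 13 of 20 and higher in 1, EGLN3 (median -0.99). The primed libraries differed on this list, whose members summed to 2870 CPM in the EOS primed library and 1573 in the CA-p38 primed library, against 1260 and 1148 in the AICAR libraries. With both primed libraries as reference 7 were lower and the median was -0.55. HIF1A, the oxygen-sensitive factor, fell from 281 to 79.7 and 72.9 CPM, and ADM fell from 79.0 to 8.33 and 6.01 CPM, while VEGFA had 61.1 and 46.7 CPM against 46.8. In the cell cycle list, 21 of 28 were lower and 1 higher (median -0.74). For the NRF2 response, 5 of the 17 tested were higher and 6 lower (median -0.18). GPX2 rose from 0.291 CPM to 54.6 and 59.6 and PRDX1 from 616 to 2244 and 2090 CPM, while GSR fell from 90.6 to 15.98 and 21.6 CPM.

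The AICAR libraries were then compared with each other. This is 1 library against 1, without a test, and the intervals below cover counting error only. At a mean of at least 5 CPM over the pair, none of 12663 identifiers (0.0%) differed past 4-fold, and 71 (0.561%) differed past 2-fold, 32 higher in AICAR 1 and 39 higher in AICAR 2. The typical difference was 1.11-fold, and 95% of identifiers were within 1.48-fold. Over 19283 identifiers with at least 100 counts the mean chi-square was 27.9, more than counting alone gives. This value cannot tell separate inductions from repeat libraries of the same induction. The libraries were kept as separate replicates by their labels. Because the 4-fold limit named no gene, the genes below are those past 2-fold, and those past 4-fold at a mean of at least 1 CPM, where 27 of 19071 identifiers (0.142%) were found. They were named after their values had been seen.

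**Figure D4:**
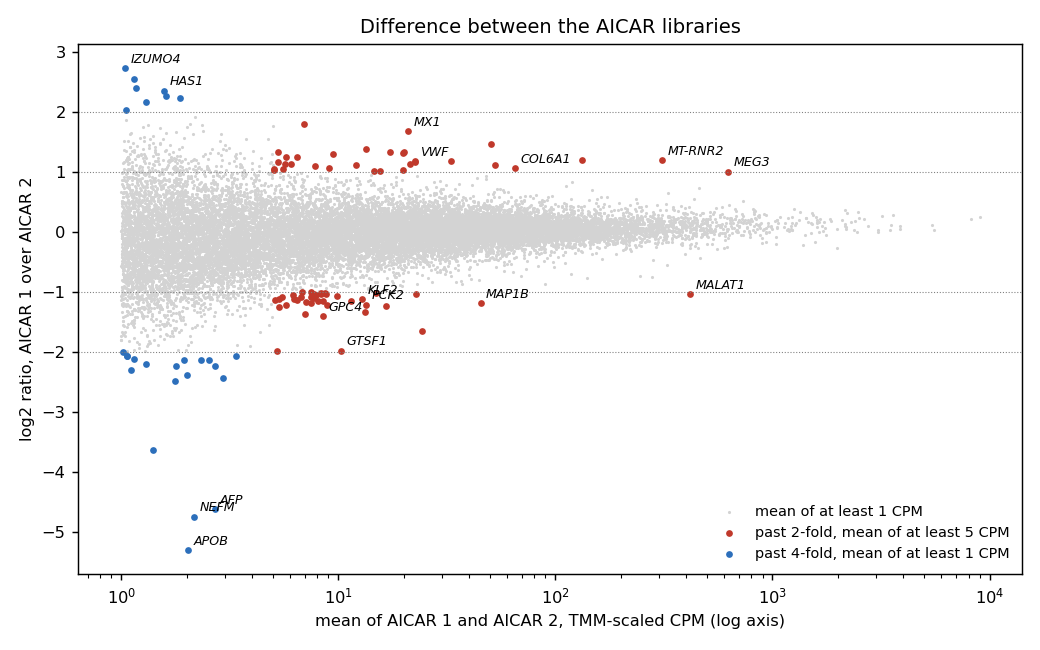
Each point is an identifier with a mean of at least 1 CPM in the AICAR pair, by that mean (log x axis) and the log2 ratio of AICAR 1 over AICAR 2 (y axis). Red points passed 2-fold at 5 CPM or more and blue points passed 4-fold at 1 CPM or more, with dotted lines at both folds. The points past 4-fold lie below 5 CPM, and APOB, NEFM and AFP are the lowest.

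The 3 largest ratios belonged to APOB, NEFM and AFP, all at low levels and higher in AICAR 2. APOB, the apolipoprotein of hepatic and intestinal lipoproteins, had 5 and 196 counts, 0.0917 and 3.98 CPM, with 2.75 CPM in the primed library. Its level was 43.4-fold higher in AICAR 2 (95% counting interval 18.3 to 135). AFP, the fetal albumin-like protein of yolk sac and liver, had 0.202 and 5.18 CPM around 1.33 in the primed library, 25.7-fold apart (14.1 to 52.0). NEFM, a neurofilament subunit, had 0.147 and 4.18 CPM against 82.5, 28.5-fold apart (14.2 to 66.9). The other naive libraries had 7.07 (VPA) and 5.40 CPM (CA-p38) of APOB and 5.82 and 4.49 CPM of AFP, close to AICAR 2, and 0.828 and 0.682 CPM of NEFM, between the AICAR libraries. HAPLN1, which stabilises hyaluronan matrix, and SELENOP, a plasma selenium carrier, were 5.44-fold and 5.65-fold higher in AICAR 2.

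In AICAR 1 the ratios were smaller. HAS1, a hyaluronan synthase, had 2.64 and 0.507 CPM against 0.0416, and SIRPA, a receptor of myeloid cells, 2.68 and 0.548 against 11.6, ratios of 5.21 (3.39 to 8.31) and 4.89 (3.23 to 7.67). IZUMO4, a sperm-related gene, was 6.88-fold higher in AICAR 1. In these genes the sign of the change against the primed library rests on both AICAR libraries for HAS1 and SIRPA, and not for APOB, AFP, HAPLN1 and IZUMO4, where the AICAR libraries lay on opposite sides. Over 68 protein-coding genes 1 AICAR library lay at least 2-fold above and the other at least 2-fold below the primed library, and the 10 with the largest ratios, PAX9, KRT17, AC253572, HES7, ALB, ARL14EPL, CASQ2, POF1B, ESR1 and OVCH2, had at most 1.46 CPM in any of the 3 libraries.

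At 5 CPM or more, 27 protein-coding genes passed 2-fold higher in AICAR 2 and 6 higher in AICAR 1. GTSF1, a germline gene of small RNA pathways, had 4.16 and 16.5 CPM against 0.541, 3.96-fold apart (3.41 to 4.61). KLF2, a naive pluripotency factor, had 8.07 and 17.6 CPM against 2.02, so both AICAR libraries were above the primed level. PCK2, the mitochondrial enzyme that makes phosphoenolpyruvate, had 8.13 and 18.8 CPM against 28.99 and is listed under another identifier as well. Its lower level was called in the 3-library fit (log2 fold change -1.11, adjusted p = 0.000385) and not without AICAR 1 in the 6-library fit (adjusted p = 0.0877). It was the only gene of the metabolic lists past 2-fold at 5 CPM.

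For several genes that were lower in AICAR cells, AICAR 2 lay closer to the primed library. GPC4, a cell surface heparan sulfate proteoglycan, had 4.66 and 12.4 CPM against 438, BEX2 had 4.38 and 9.84 against 94.8, MAP1B, a microtubule protein of neurons, had 27.6 and 62.9 against 204, and MED12, of the Mediator complex, had 3.93 and 8.56 against 62.1. MALAT1, a nuclear noncoding RNA, had 274 and 560 CPM against 35.7, with 497 CPM in CA-p38 cells and 178 in VPA cells. COL1A2, a fibroblast marker, had 14.9 and 30.7 CPM against 127. The sum over the 10 fibroblast markers was 49.1 CPM in AICAR 1 and 70.2 in AICAR 2. The part of these markers in the differences between the AICAR libraries was not tested.

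Higher in AICAR 1 were MX1, an interferon-induced GTPase, with 31.9 and 9.92 CPM against 2.71, a ratio of 3.21 (2.91 to 3.56), and VWF, the von Willebrand factor of endothelium, with 31.2 and 13.8 against 2.89. COL6A1 had 88.6 and 42.3 CPM against 145. Among noncoding RNAs the imprinted MEG3 had 835 and 415 CPM against 0.791, and MEG9, of the same cluster, had 31.1 and 13.9 against 0.271. The mitochondrial ribosomal RNAs MT-RNR1 and MT-RNR2 had 72.2 and 33.2 CPM against 40.4 and 432 and 188 against 403, so the primed level of each lay between those of the pair. Of the 71 identifiers past 2-fold, 11 were processed and 2 transcribed processed pseudogenes, each higher in AICAR 1.

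**Figure D5:**
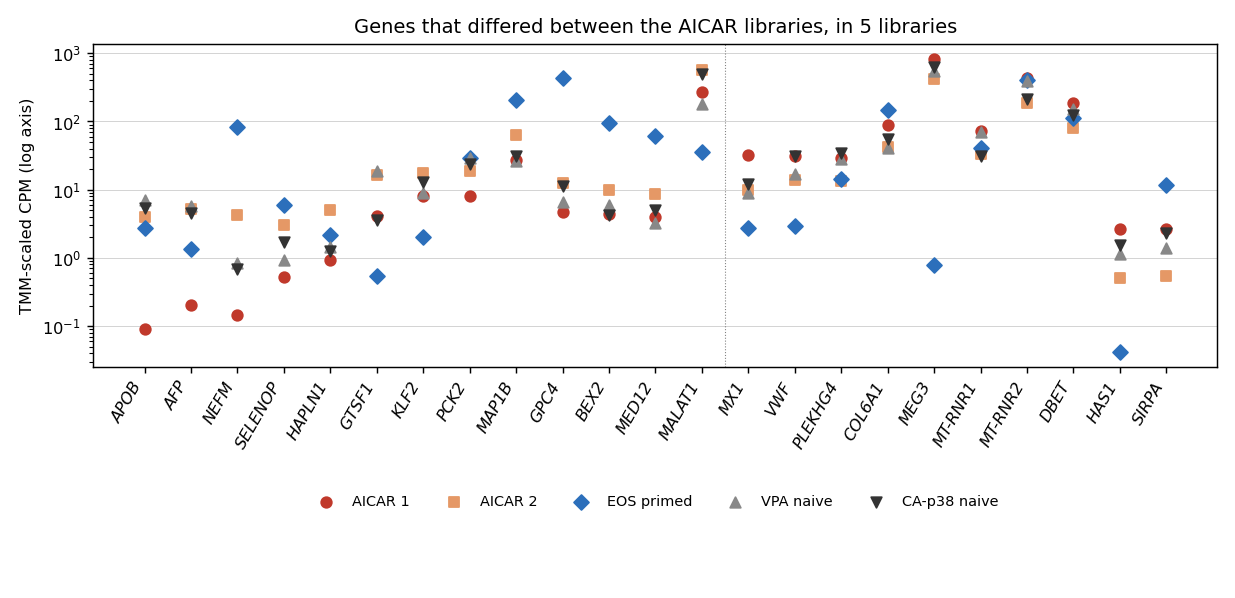
TMM-scaled CPM (log y axis) of 23 genes that differed between the AICAR libraries, in AICAR 1, AICAR 2, the EOS primed library and the VPA and CA-p38 naive libraries, 1 symbol per library. Left of the dotted line AICAR 2 was higher, with the widest gaps for APOB, AFP and NEFM, and right of it AICAR 1 was higher.

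In the pathway lists the pair differed little. The cell cycle list had a median log2 ratio of AICAR 1 to AICAR 2 of 0.23, with 25 of 28 genes higher in AICAR 1, and its G2 and mitosis genes had 0.29. TOP2A had 195 and 130 CPM against 473 and CDK1 had 67.3 and 40.8 against 114, so both were lower in AICAR cells whichever library is taken. Complex I had 0.12 (29 of 37 higher in AICAR 1) and complexes III to V 0.14 (35 of 42), and their medians against the primed library were 0.56 and 0.36, and 0.43 and 0.32, in AICAR 1 and AICAR 2. FGF ligand genes leaned to AICAR 2 (-0.34, 3 of 10 higher in AICAR 1), and FGFR1 leaned to AICAR 1 with 41.3 against 28.01 CPM. DEPTOR, FGFR3, PRODH and CPT1A were 1.03-fold, 1.04-fold, 1.08-fold and 1.07-fold higher in AICAR 2.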

How the data were processed

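RNA was poly(A) selected, made into libraries with a SMART-Seq Stranded kit and sequenced on a NovaSeq. The authors trimmed reads with Trim Galore 0.4.4 and cutadapt 1.15, aligned them with Bowtie2 to Ensembl GRCh38 cDNA and noncoding RNA, and deposited raw read counts per gene identifier, keeping alignments of non-zero mapping quality. Whether counting used strand was not given in the sources used here. From these deposited counts, 26 spike-in features and 23 columns of other studies were left out. Symbols and positions came from GENCODE 44, and 6932 symbols had several identifiers, counted apart.

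AICAR 1 and AICAR 2 were compared with EOS primed by edgeR 4.0.16 (R 4.3.3; TMM, filterByExpr, quasi-likelihood test, Benjamini-Hochberg, threshold 0.05), with 1 residual degree of freedom, so the lone primed library was assumed to vary like the AICAR pair. On counts simulated for this comparison over 29605 genes, 68% of 2-fold and 99% of 4-fold changes were recovered, with 9 false calls. Only 200 well counted genes were changed there, evenly in both directions, and every library was given the same spread. The real comparison called far more genes, includes low ones and has a primed spread that is unknown, so these rates do not carry over to it. AICAR 1 was compared with AICAR 2 by CPM ratio (0.5 counts added) with exact Clopper-Pearson 95% intervals. Intervals and the floor of 3 counts per library cover counting error only, since reads are not independent molecules.

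The libraries and the 38 gene lists were chosen with earlier results of these data known. Named genes were list members, the 10 highest and 10 lowest called protein-coding changes (at least 5 CPM, more than 3 counts in every library, pair within 2-fold), and the 10 widest splits about the primed library. No pair difference passed the 4-fold limit at 5 CPM, so genes past 2-fold there, or past 4-fold at 1 CPM, were named after their values were seen. Alternatives were DESeq2 1.42.0, limma-voom 3.58.1, other scalings and filters, both primed libraries, a 6-library fit and leaving out each AICAR library. In the 6-library fit the VPA and CA-p38 naive libraries formed 1 group. With an AICAR library left out, that group alone set the spread. A call lost there is therefore not a measure of disagreement within the AICAR pair. Some list members are not reported here.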

Additional observations from a re-analysis of the deposited data

How the results depend on the processing

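Genes called between AICAR and primed cells numbered 9770 with DESeq2, 11560 with limma-voom and 10983 in the 6-library fit, within 1.5 times of 12370 under each alternative run. Without AICAR replicate 1 or 2 the counts ran from 9832 to 10298 in all, 4642 to 4915 higher and 5190 to 5383 lower, the lone AICAR library being assumed to vary like the others. The share of calls that were higher was 46.0%, 52.2% with library totals and 40.4% with limma-voom. Of 38 lists, 25 had a median past 0.3 in size, and those 25 kept their sign under every alternative. Between the AICAR libraries 71 genes passed at 2-fold, 27 at a 1 CPM floor and 2 with library totals, against 0 at 4-fold and 5 CPM.

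No paired analysis was possible because the groups share fewer than 2 replicate numbers. Signs turned as follows, and the cause was not tested beyond the change of libraries itself. With limma-voom, log2 fold changes were AFP -0.44, HAPLN1 -0.0424, HES7 -1.06, MAPK14 -0.0017, PAX9 -2.23. With both primed libraries as reference, log2 fold changes were AFP -0.46, FGFR2 -0.0358, HSPA5 -0.0114, MAPK14 -0.0865, MT-RNR2 0.16, PAX9 -0.11. Without AICAR replicate 2 (6-library fit), log2 fold changes were AFP -2.67, ALB -1.60, HAPLN1 -1.18, MT-RNR2 0.14, PAX9 -7.14. With library totals, log2 fold changes were ALDOA 0.0193, PRKAG1 0.0277. Without AICAR replicate 1 (6-library fit), log2 fold changes were APOB 0.56, HES7 -6.04, IZUMO4 -0.12, MAPK14 -0.14, MT-RNR1 -0.26, PRKAG1 0.0055. With median-ratio factors, log2 fold changes were MAPK14 -0.0248. With DESeq2, log2 fold changes were MAPK14 -0.0248. PAX9 and HES7 had no count in the AICAR library kept in those fits, so those fitted values move with the count added to zeros. With DESeq2, TDGF1, MT-ND1, EBP, ALB, NEFM, MX1, MAP1B, SELENOP, CDK1, SIRPA, COL6A1 and PCK2 did not pass, with adjusted p from 0.0605 (MAP1B) to 0.415 (PCK2).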

Other observations

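By chromosome, over identifiers with a mean of at least 5 CPM, chromosome 19 had a median log2 fold change of 0.32 over 1002 identifiers, and its 225 ZNF genes, most of which encode zinc finger proteins, had 0.71 with 117 higher and 16 lower. The other 777 had 0.25 with 293 higher and 162 lower, and over all chromosomes at this level 25.7% of identifiers were called higher and 35.3% lower. Chromosomes X and 5 had medians of -0.44 and -0.38.

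Between the AICAR libraries, chromosome 16 had a median log2 ratio of AICAR 1 to AICAR 2 of 0.13, with 69.6% of 634 identifiers higher in AICAR 1. Of 185 processed pseudogenes at 5 CPM or more, 146 were higher in AICAR 1 (median log2 ratio 0.36), against 5996 of 10802 protein-coding genes (median 0.03). Their summed level was 5241 CPM in AICAR 1, 4193 in AICAR 2, 4937 in the primed library, 5726 in VPA cells and 4372 in CA-p38 cells.

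Trophectoderm markers summed to 99.2 and 108 CPM in the AICAR libraries against 8.05, with 5 of the 8 tested higher. The 9 markers of eight-cell-like cells, all called higher, summed to 55.4 and 60.5 CPM against 0.312. Of these, 3 of the 9 were higher in AICAR 1 and the others in AICAR 2, with a median log2 ratio of AICAR 1 to AICAR 2 of -0.69. LEUTX had 11 and 40 counts and DUXA 13 and 42, 4.02-fold (95% counting interval 2.03 to 8.69) and 3.57-fold (1.88 to 7.26) higher in AICAR 2. KLF17, which led the sum, had 31.1 and 24.5 CPM. It is a naive marker as well, so the sum is not particular to eight-cell-like cells. LEUTX is listed under more than 1 identifier and was not called in the fit to all 6 libraries (adjusted p = 0.0833). With limma-voom neither LEUTX nor DUXA was called (adjusted p = 0.145 and 0.13). Without AICAR 2 in the 6-library fit their log2 fold changes were 6.38 and 6.62.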
